A study of Homo sapiens with 6 samples.

Results

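The platelet-derived growth factor (PDGF) genes comprised 7 members, which are the 4 ligand genes PDGFA, PDGFB, PDGFC and PDGFD, the 2 receptor genes PDGFRA and PDGFRB, and the receptor-like gene PDGFRL. They were chosen by name out of 60835 gene names in the count table, with earlier results on these libraries in view. All 7 were found, and 6 of them, all but PDGFRA, passed the filter on low counts that left 15346 tested genes. RNA was sequenced from HEY, an established human ovarian cancer line, in 3 libraries with an siRNA against CCNL2 (siCCNL2) and 3 libraries with a control siRNA (siNC). The treatment note reads 48 h and is worded alike for both groups, so the control time is taken from that note. Both groups were grown in DMEM with fetal bovine serum and antibiotics, per the labels. No label says that libraries of a group were separate cultures. Any p-value therefore reflects the variation among these libraries alone, and that variation may be technical. Per its title, the series concerned resistance of ovarian cancer to the drug cisplatin and the cell death called ferroptosis.

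PDGFs are secreted dimers that bring together a pair of receptor tyrosine kinases at the cell surface. Dimers of the A, B and C chains bind PDGF receptor alpha, and dimers of the B and D chains bind receptor beta. The C and D chains are released in a latent form that extracellular proteases must cut, while the A and B chains are processed inside the cell. In solid tumours the ligands are often made by the cancer cells and the receptors mainly by fibroblasts and pericytes.

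CCNL2 (chr1:1385711-1399335, minus strand), a cyclin of nuclear speckles that partners CDK11, had 203, 182 and 186 CPM (counts scaled to a common library size) in siCCNL2 libraries, against 261, 267 and 246 CPM in siNC libraries. The libraries did not overlap, and the log2 fold change was -0.44 (SE 0.0439), so 73.7% of the siNC level remained. The knockdown in these libraries was therefore partial at the RNA level. Total counts ran from 13596286 to 18095529 per library, and log2 CPM correlated at 0.9937 to 0.9947 within groups and at 0.9869 to 0.9889 between groups. Markers of the labelled cell type were mixed. KRT7, KRT8, KRT18 and PAX8 were abundant, whereas the adhesion gene CDH1 and the tumour antigen gene MUC16 stayed near 0 in both groups. The summed score of the 8 epithelial markers was 2256 to 2345 in siCCNL2 libraries and 3023 to 3070 in siNC libraries, and 4 of the 6 tested ones were called lower. That sum is nearly all KRT7, KRT8 and KRT18, and EPCAM, at a mean score of 5.38 in siCCNL2 and 3.65 in siNC without overlap, was not called. Among 15346 tested genes, 33.6% were called at an adjusted p under 0.05, which splits into 17.2% higher and 16.5% lower in siCCNL2. The 3 siCCNL2 libraries did not overlap the 3 siNC libraries in CPM for 43.9% of tested genes.

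Windows of 250 bases before RefSeq (GRCh38.p14) transcript starts were used for 4 of the 7 members, 8 windows in all, of which 4 belong to PDGFA. The source at hand held no window for PDGFB and PDGFC, and PDGFRL was left out. This says nothing about whether RefSeq annotates their starts. Shown here are 2 windows of PDGFA and 1 of PDGFRB, since both genes had lower levels in siCCNL2 and factors known to bind these elements were measured in the same libraries. Each is written 5′ to 3′ on the minus strand, ending at the base before the transcript start. Capitals mark 3 motifs searched on both strands, the GC box GGGCGG bound by SP1, the EGR1 motif GCGGGGGCG, and the CCAAT box bound by NF-Y. The EGR1 motif and the GC box overlap each other here. The first PDGFA window lies at chr7:520227-520476, the second at chr7:519847-520096, and the PDGFRB window at chr5:150155846-150156095. The names outer and inner order only these 2 PDGFA windows, not all 4.
PDGFA, outer window: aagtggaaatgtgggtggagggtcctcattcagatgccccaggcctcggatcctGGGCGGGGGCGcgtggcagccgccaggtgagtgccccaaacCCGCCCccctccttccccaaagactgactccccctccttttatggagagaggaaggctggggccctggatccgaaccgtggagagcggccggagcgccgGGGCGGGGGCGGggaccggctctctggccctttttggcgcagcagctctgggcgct
PDGFA, inner window: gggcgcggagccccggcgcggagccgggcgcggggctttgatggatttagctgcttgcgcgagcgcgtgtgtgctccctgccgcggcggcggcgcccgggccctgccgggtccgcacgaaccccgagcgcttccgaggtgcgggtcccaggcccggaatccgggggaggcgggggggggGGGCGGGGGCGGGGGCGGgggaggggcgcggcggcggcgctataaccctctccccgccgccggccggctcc
PDGFRB window: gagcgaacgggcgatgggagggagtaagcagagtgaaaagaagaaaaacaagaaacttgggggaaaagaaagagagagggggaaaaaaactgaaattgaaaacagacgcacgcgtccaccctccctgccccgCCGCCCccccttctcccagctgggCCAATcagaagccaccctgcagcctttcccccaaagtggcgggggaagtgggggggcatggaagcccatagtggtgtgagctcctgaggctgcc
The outer PDGFA window held 4 GC boxes and 2 EGR1 motifs at 68.8% GC, and the inner one held 3 GC boxes and 2 EGR1 motifs at 81.6% GC. The other 2 PDGFA windows, at chr7:520701-520950 and chr7:518330-518579, held 1 and 5 GC boxes and 0 EGR1 motifs each, so the printed windows are those that carry that motif. The PDGFRB window held 1 GC box and 1 CCAAT box at 58.4% GC. Of the other members, PDGFD had 1 GC box in its window. PDGFRA had 2 GC boxes and 1 CCAAT box in one window, and 0 motifs in the other. GC and CCAAT boxes thus also stand before members that were not called or not tested. Over 35116 windows of this length the GC box occurred in 42.6%, the EGR1 motif in 4.72% and the CCAAT box in 32.0%, with a median GC content of 58%. A match describes the letters only, and gene counts cannot tell which start was used.

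Levels of different genes were compared per length, on the TPM-like score deposited by the authors. PDGFC was the most abundant member in both groups, followed by PDGFA and PDGFB. In siCCNL2 the order went on with PDGFRL, PDGFRB, PDGFD and PDGFRA, and in siNC with PDGFRB, PDGFD, PDGFRL and PDGFRA. The ranges of PDGFB and PDGFRL overlapped in siCCNL2, and no other neighbours in either order overlapped. By mean score PDGFC exceeded 89.2% of tested genes in siCCNL2 and 88.9% in siNC, whereas PDGFRB exceeded 17.9% in siCCNL2 and 25.5% in siNC. By this score PDGFC and PDGFA were thus the abundant members, and both receptors were among the scarce ones, with a limit for PDGFRA given below.

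**Figure D1:**
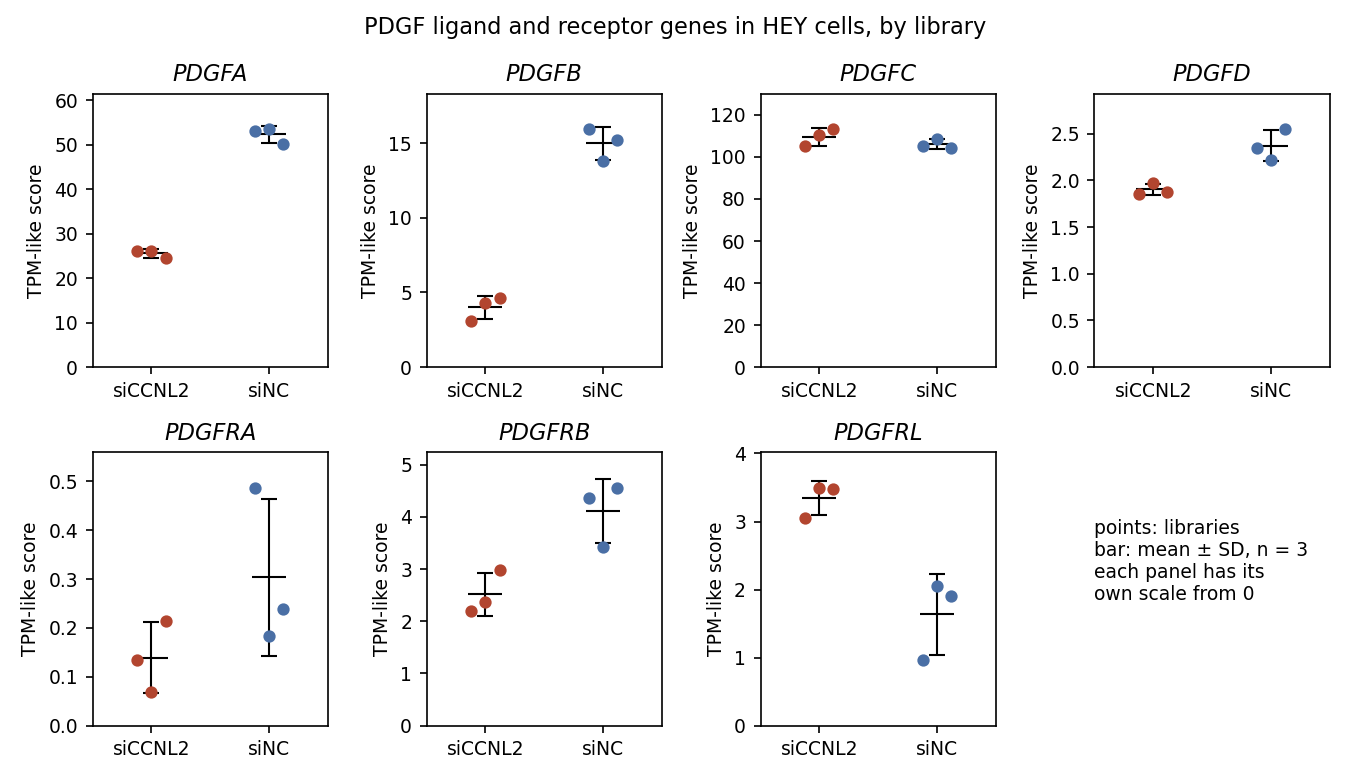
TPM-like score (vertical axis, each panel from 0) of the 7 PDGF genes in the 3 siCCNL2 and 3 siNC libraries; points are libraries and bars the mean ± SD. PDGFA, PDGFB, PDGFD and PDGFRB lie lower and PDGFRL higher in siCCNL2 with no overlap, while PDGFC and PDGFRA overlap.

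PDGFA (chr7:497258-520296, minus strand), the A chain that signals through receptor alpha, scored 26.1, 26.2 and 24.5 in siCCNL2 libraries, against 53.2, 53.5 and 50.3 in siNC libraries. All siCCNL2 values lay near the middle of the distance between 0 and the siNC values, with a narrow spread in each group. The mean score was 25.6 ± 0.972 in siCCNL2 and 52.3 ± 1.81 in siNC (SD, n = 3 each), and the log2 fold change from counts was -1.02 (SE 0.0667), or 49.2% of siNC. A lower fold change was seen for 216 tested genes. Since fewer cells of a kind and less RNA per cell cannot be told apart in bulk RNA, this and the following values describe the culture as a whole.

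PDGFB (chr22:39223359-39244982, minus strand), the B chain, which binds both receptors and is the cellular counterpart of the viral oncogene sis, scored 3.12, 4.29 and 4.60 in siCCNL2 libraries, against 15.9, 13.8 and 15.2 in siNC libraries. The highest siCCNL2 library stayed far under the lowest siNC library. The counts behind these scores were 68, 72 and 88 in siCCNL2 libraries, against 325, 263 and 297 in siNC libraries. PDGFB averaged a score of 4.0 ± 0.782 in siCCNL2 and 15.0 ± 1.10 in siNC (SD, n = 3 each). Its log2 fold change of -1.91 (SE 0.135), or 26.7% of siNC, was the lowest among the members, and 23 tested genes had a lower one.

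PDGFC (chr4:156760454-156971799, minus strand), a latent ligand for receptor alpha, scored 105, 110 and 113 in siCCNL2 libraries, against 105, 109 and 104 in siNC libraries. The libraries overlapped. The log2 fold change was 0.06 (SE 0.0434), and the gene was not called. PDGFD (chr11:103907189-104164379, minus strand), the latent ligand for receptor beta, scored 1.86, 1.97 and 1.88 in siCCNL2 libraries, against 2.34, 2.22 and 2.55 in siNC libraries. It was lower in every siCCNL2 library, but it rested on 36 to 54 counts per library, and its log2 fold change of -0.31 (SE 0.217) was not called.

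The ligand make-up differed as well. Summed over the 4 ligands, the score was 136, 143 and 144 in siCCNL2 libraries, against 177, 178 and 172 in siNC libraries, a ratio of 0.803. PDGFC made up 77.7% ± 0.762 of that sum in siCCNL2 and 60.3% ± 0.736 in siNC (SD, n = 3 each). PDGFA made up 18.2% ± 1.12 in siCCNL2 and 29.8% ± 0.513 in siNC, and PDGFB 2.83% ± 0.476 in siCCNL2 and 8.53% ± 0.699 in siNC. The PDGFD share was the same to within its spread, at 1.35% ± 0.0420 in siCCNL2 and 1.35% ± 0.120 in siNC. PDGFA exceeded PDGFB by a factor of 6.60 ± 1.59 in siCCNL2 and 3.51 ± 0.327 in siNC, and this ratio did not overlap between the groups. These shares follow from the same values that chose the members and are given as a description.

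**Figure D2:**
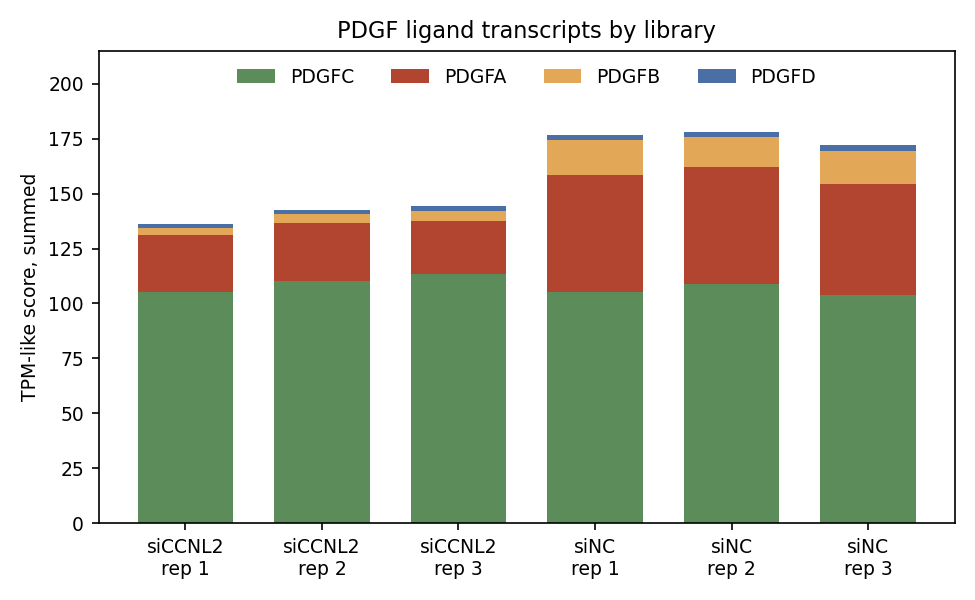
Summed TPM-like score of the 4 PDGF ligand genes (vertical axis, from 0) in each siCCNL2 and siNC library, stacked by gene. The PDGFC segment is of like height in all 6 libraries, and the PDGFA and PDGFB segments are shorter in siCCNL2, where the total is 136 to 144, against 172 to 178 in siNC.

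PDGFRB (chr5:150113839-150155872, minus strand), receptor beta, scored 2.19, 2.38 and 2.98 in siCCNL2 libraries, against 4.36, 3.42 and 4.56 in siNC libraries. The groups did not overlap, although the highest siCCNL2 and the lowest siNC library lay close together. The mean score was 2.51 ± 0.411 in siCCNL2 and 4.11 ± 0.606 in siNC (SD, n = 3 each), with a log2 fold change of -0.71 (SE 0.166), or 61.3% of siNC. Receptor beta is the usual marker of pericytes and fibroblasts. Among 9 markers of these cells, 3 of the 5 tested genes were also called lower (60%, beside 16.5% over all tested genes). The summed score of the 9 markers was 151 to 170 in siCCNL2 libraries and 204 to 211 in siNC libraries, of which MCAM and CSPG4 made up most, and DCN was at 0 counts in every library. The other 2 tested markers were not called, RGS5 with a log2 fold change of 0.37 (libraries not overlapping, higher in siCCNL2) and ACTA2 with 0.14. COL1A2, COL3A1 and LUM stayed under a mean score of 1, and the part of these markers in the PDGFRB value was not tested.

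PDGFRA (chr4:54229280-54298245, plus strand), receptor alpha, had counts close to the limit of detection. It had 5, 2 and 7 counts in siCCNL2 libraries, against 17, 6 and 8 counts in siNC libraries. These overlapped, and the gene was not tested. Summed counts were 14 in siCCNL2 and 31 in siNC, and the depth-scaled ratio of 0.464 had a 95% counting interval of 0.228 to 0.899 that leaves out the spread between libraries. The log2 ratio of mean CPM was -1.12 with all libraries, -0.60 without siNC replicate 1, which held 17 of the 31 siNC counts, and -1.57 without siCCNL2 replicate 3. With no count filter the log2 fold change was -1.09 (SE 0.595). AC058822.1 shares 65993 bases with PDGFRA on the same strand and held 0 counts in every library. How reads of shared bases were counted is not given, so the PDGFRA level may be understated. By these counts, the receptor to which 3 of the 4 chains bind was the least abundant member in both groups.

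PDGFRL (chr8:17576433-17644071, plus strand), a secreted protein that resembles the extracellular part of a PDGF receptor and lacks a kinase, went the other way. Its score was 3.05, 3.50 and 3.48 in siCCNL2 libraries, against 0.959, 2.05 and 1.91 in siNC libraries. Every siCCNL2 library lay above every siNC library, and siNC replicate 1 was the lowest. The counts were 34, 30 and 34 in siCCNL2 libraries, against 10, 20 and 19 in siNC libraries. The log2 fold change was 1.04 (SE 0.326), with 1.01 and no call without siCCNL2 replicate 3, and 0.76 and no call without siNC replicate 1. PDGFRL shares 277 bases with MTUS1 on the opposite strand, whose own log2 fold change of -0.27 was not called (adjusted p = 0.534), and reads of the shared bases cannot be assigned without strand.

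Of the 6 tested members, 3 were called lower and 1 higher, beside 16.5% and 17.2% over all tested genes. The members were proposed with this contrast known, so the count is a description and nothing is read from it. Across all tested genes the median log2 fold change was 0.00 and the median absolute value 0.19.

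**Figure D3:**
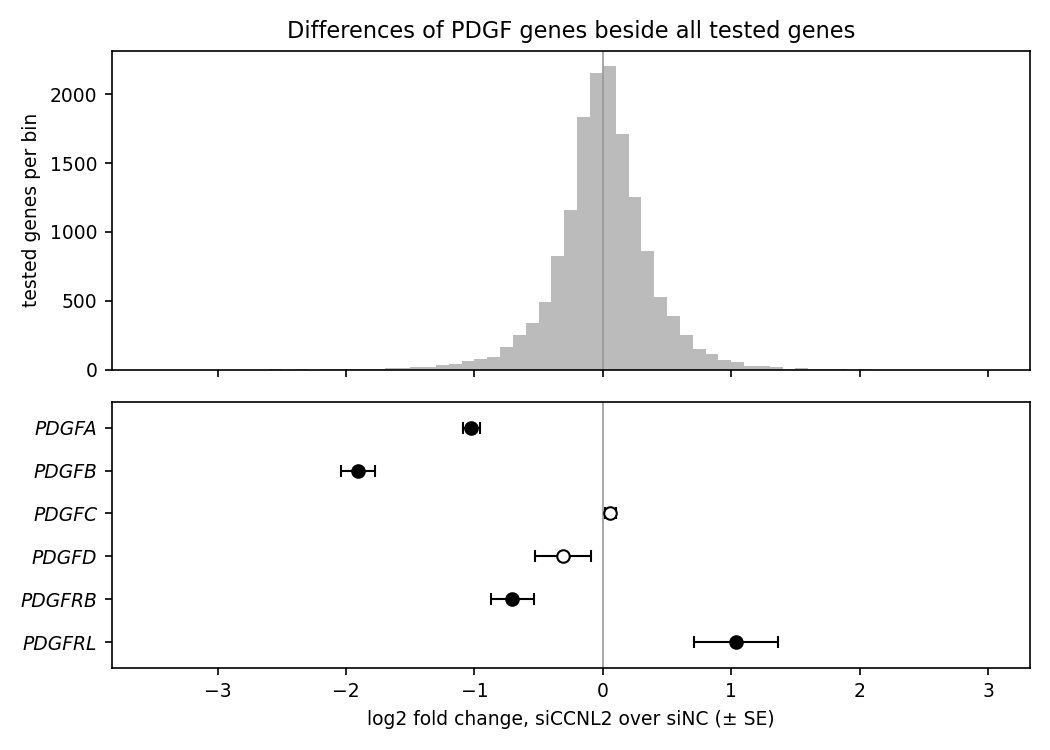
Upper panel, number of tested genes per bin of log2 fold change (horizontal axis, siCCNL2 over siNC); lower panel, the 6 tested PDGF genes with ± SE, filled where called and open where not. PDGFB lies farthest to the left at -1.91, PDGFA and PDGFRB also lie left of 0, PDGFC lies at 0.06 and PDGFRL lies to the right at 1.04.

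Genes that handle PDGFs outside and inside the cell were taken from 6 lists of 77 genes, members left out, of which 71 were tested. In these, 12 were called higher and 22 lower by edgeR's quasi-likelihood test with Benjamini-Hochberg adjustment, the test used for every adjusted p here. That was 16.9% higher and 31.0% lower, beside 17.2% and 16.5% over all tested genes, and the median log2 fold change was -0.05.

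The proteases that mature PDGFs stood lower where they were called. Of 5 tested among 7, 3 fell (60%, beside 16.5% over all tested genes), 0 rose and 2 were not called. The list is short and was written with results of these data known. PLAT, tissue plasminogen activator, which activates the PDGFC dimer, had a mean score of 74.0 ± 1.37 in siCCNL2 and 146 ± 3.63 in siNC (SD, n = 3 each; log2 fold change -0.97, SE 0.0433, adjusted p = 1.87e-14). PLAU, urokinase, which can activate the PDGFD dimer, had a mean score of 821 ± 13.9 in siCCNL2 and 1357 ± 19.95 in siNC (log2 fold change -0.71, SE 0.0329, adjusted p = 3.07e-14). FURIN, a proprotein convertase that cuts the A and B chains, was at 72.8 ± 1.46 in siCCNL2 and 98.1 ± 2.24 in siNC (log2 fold change -0.42, SE 0.0426, adjusted p = 2.92e-08). The convertases PCSK5 and PCSK7 were not called, and ST14, matriptase, was too low to test.

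Proteins that bind PDGFs in the matrix or assist their receptors were 6, of which 5 were tested. Among these, 4 fell (80%, beside 16.5% over all tested genes) and 0 rose, in a list likewise written with results known. SPARC, a matricellular protein that binds the B chain and keeps it from its receptor, had a mean score of 455 ± 10.5 in siCCNL2 and 651 ± 9.16 in siNC (log2 fold change -0.51, adjusted p = 3.41e-11). COL1A1, a collagen chain, fell too (log2 fold change -0.63, adjusted p = 2.82e-04). The co-receptor genes NRP1 and NRP2 fell by smaller amounts, with log2 fold changes of -0.27 (adjusted p = 1.66e-06) and -0.19 (adjusted p = 6.12e-04), and LRP1, an endocytic receptor that associates with receptor beta, was not called (-0.06, adjusted p = 0.411).

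Inside the cell, adaptors and enzymes dock on active receptors. Of 20 tested among 21, 2 rose, 2 fell and 16 were not called, which is 20% called beside 33.6% over all tested genes, and the median log2 fold change was 0.00. PTPN11, the phosphatase SHP2 that links the receptors to RAS signalling, had a mean score of 203 ± 6.04 in siCCNL2 and 136 ± 4.82 in siNC (log2 fold change 0.58, adjusted p = 2.33e-12), and the SRC-family kinase gene YES1 rose as well (0.44, adjusted p = 5.09e-09). The genes that fell were PIK3R3, a regulatory subunit of PI3-kinase (-0.79, adjusted p = 7.2e-05), and VAV3, a guanine nucleotide exchange factor (-1.12, adjusted p = 0.00268). The adaptor CRK had the highest level of the list and differed little, at a score of 226 ± 5.26 in siCCNL2 and 227 ± 4.72 in siNC. Its log2 fold change lay at 0.00 and changed sign under 7 of 16 alternatives.

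Genes that end receptor signals were split between directions. Of 14 tested, 3 rose (21.4%, beside 17.2% over all tested genes), 4 fell (28.6%, beside 16.5%) and 7 were not called. Those that rose were PTPRJ, a receptor-type phosphatase that dephosphorylates receptor beta (log2 fold change 0.45, adjusted p = 9.71e-10), the ubiquitin ligase CBL (0.28, adjusted p = 8.89e-06) and ERRFI1, a feedback inhibitor of EGF receptors (0.24, adjusted p = 1.17e-04). The lowest value was that of SOCS1, an inhibitor of cytokine signalling through JAK kinases, with a mean score of 8.92 ± 2.10 in siCCNL2 and 21.8 ± 0.594 in siNC (log2 fold change -1.28, adjusted p = 1.05e-07). The adaptor SH2B3 (-0.34, adjusted p = 3.12e-08) and the RAS-pathway inhibitors SPRY2 (-0.24, adjusted p = 0.00357) and SPRY4 (-0.19, adjusted p = 8.53e-04) also fell, and ACP1, a low-molecular-weight phosphatase with the highest score of the list when averaged over all 6 libraries, was not called.

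Early genes that PDGF and serum switch on did not share a direction. Of 17 tested among 19, 4 rose (23.5%, beside 17.2% over all tested genes), 5 fell (29.4%, beside 16.5%) and 8 were not called. Among the called genes, IER2 (log2 fold change 0.44, adjusted p = 7.68e-04), the matricellular gene CCN1 (0.37, adjusted p = 8.74e-10) and the MAP kinase phosphatase gene DUSP1 (0.30, adjusted p = 2.93e-05) rose most. EGR1 (1.08, adjusted p = 0.0512), FOS (0.49, adjusted p = 0.0796) and FOSB (0.36, adjusted p = 0.489) lay above DUSP1 but were not called. JUNB (-0.63, adjusted p = 2.4e-07), CCN2, encoding connective tissue growth factor (-0.48, adjusted p = 1.35e-08), and the ERK phosphatase gene DUSP6 (-0.37, adjusted p = 4.94e-05) fell most. FOSL1, an AP-1 subunit and the most abundant of these genes, had a mean score of 1133 ± 23.0 in siCCNL2 and 1434 ± 49.8 in siNC (log2 fold change -0.33, adjusted p = 1.63e-08).

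Factors known to bind promoters of PDGF genes were all tested, 11 in number, with 3 higher, 4 lower and 4 not called. As shares, 27.3% were higher and 36.4% lower, beside 17.2% and 16.5% over all tested genes. SP1, known to bind GC boxes, was not called (log2 fold change 0.05, adjusted p = 0.371), and its binding was not measured. EGR1, whose motif occurs in 2 of the 4 PDGFA windows, had a mean score of 1.24 ± 0.405 in siCCNL2 and 0.578 ± 0.282 in siNC, and its log2 fold change of 1.08 was not called (adjusted p = 0.0512). WT1, which also binds such GC-rich elements, fell (log2 fold change -0.46, adjusted p = 0.0135), and its value without siCCNL2 replicate 1 was -0.33 and not called (adjusted p = 0.098). HIF1A, the oxygen-regulated factor (-0.49, adjusted p = 3.94e-09), and ETS1, the most abundant of the 11 (-0.26, adjusted p = 1.43e-06), also fell. The subunits of NF-Y, which binds the CCAAT box of the Pdgfrb promoter in mouse, differed among themselves. NFYB (log2 fold change 0.29, adjusted p = 0.00367) and NFYA (0.25, adjusted p = 0.0124) rose, whereas NFYC fell (-0.28, adjusted p = 0.0015). The NFYA call was lost without siCCNL2 replicate 3 (0.22, adjusted p = 0.0693) and under both limma-trend fits on the score (0.22 and 0.23, adjusted p = 0.109 and 0.103). The zinc finger factor KLF5 rose (0.23, adjusted p = 0.00796).

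**Figure D4:**
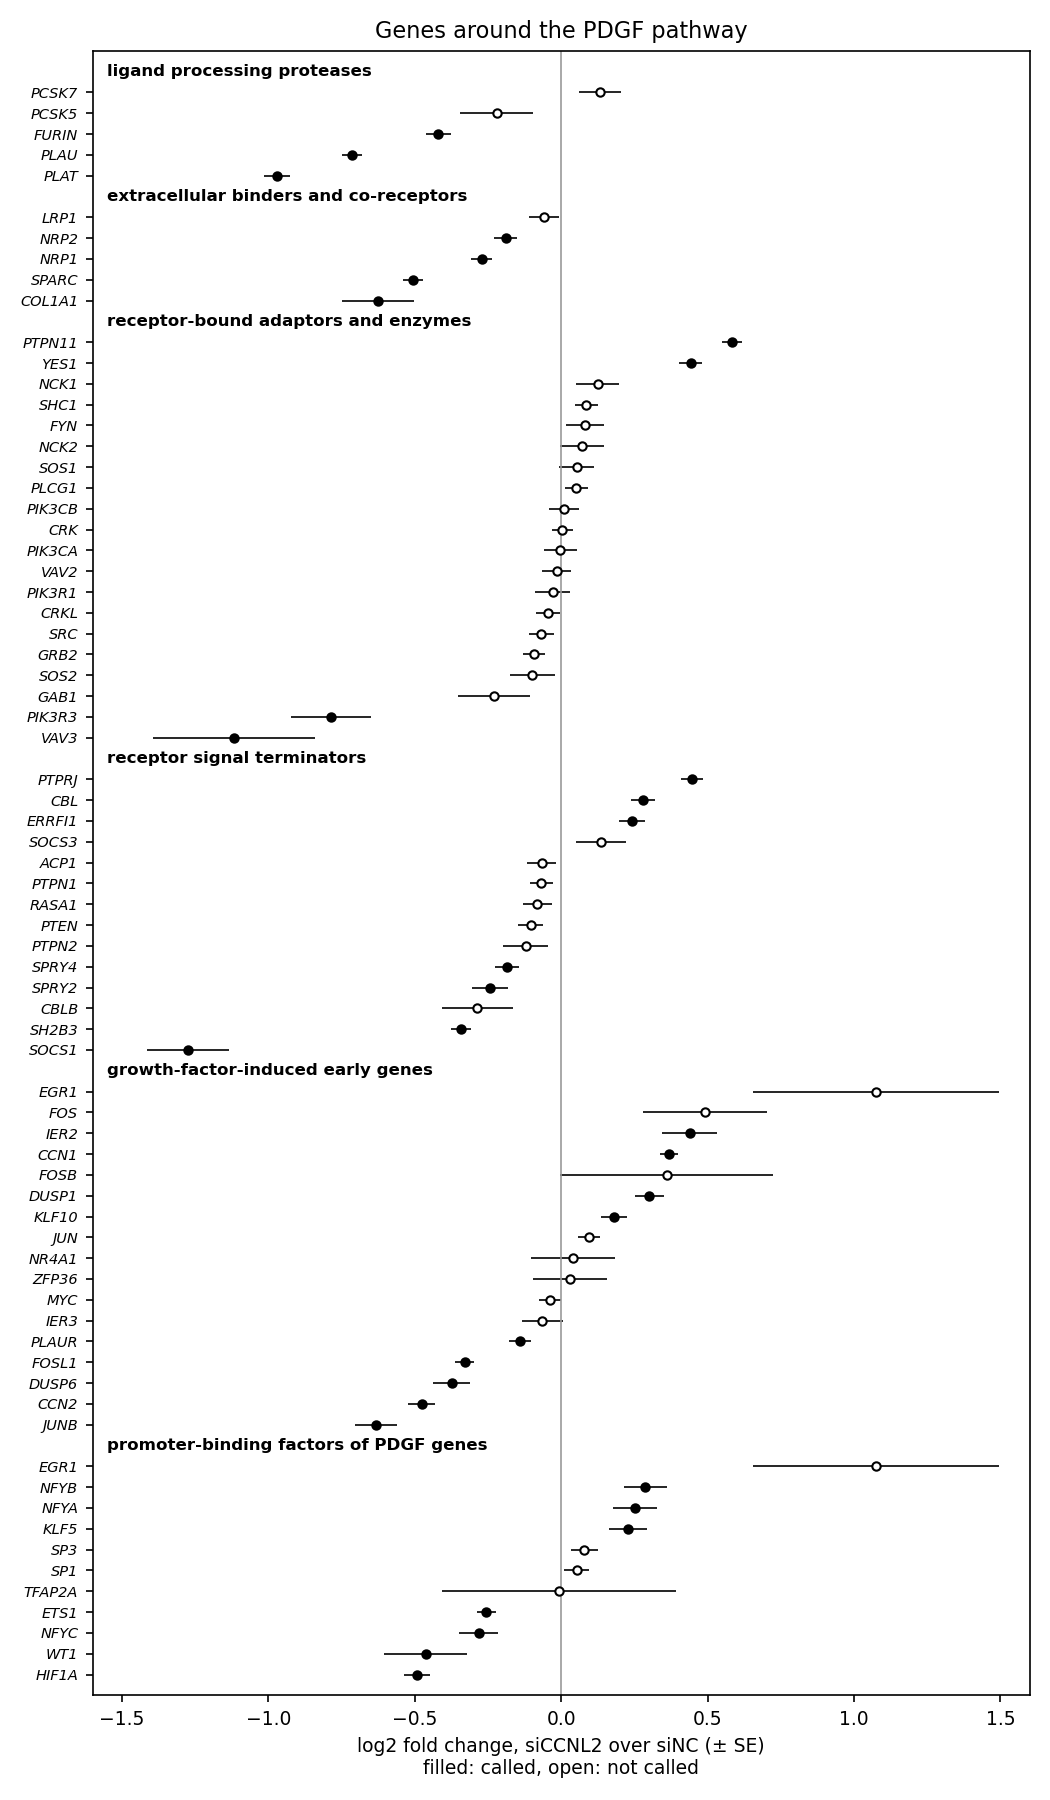
Log2 fold change (horizontal axis, siCCNL2 over siNC, ± SE) of each tested gene of the 6 lists around the PDGF pathway, sorted within each list, filled where called and open where not; EGR1 stands in both of its lists. PLAT, PLAU, FURIN, COL1A1, SPARC, NRP1 and NRP2 lie left of 0, while the lists of adaptors, terminators, early genes and promoter-binding factors hold calls on both sides.

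Genes whose centred log2 CPM profile over the 6 libraries lay closest to a member were named by the smallest root-mean-square difference among 13908 candidates. For PDGFA these were CCND1 (0.0555), encoding cyclin D1, IGSF3 (0.0585) and the protease gene PLAT (0.0594). For PDGFB they were CLDN4 (0.168), a tight junction gene, MMP2 (0.191), encoding a gelatinase, and PLSCR4 (0.192). All of these values are on the log2 scale, and likeness over 6 libraries in 2 groups is mostly likeness of the group difference. PDGFRB lay closest to TST (0.0778), PUDP (0.0831) and CRTC1 (0.088), and PDGFRL to TTLL11 (0.101), ADM2 (0.103) and ASB18 (0.109). PDGFC lay closest to PSMF1 (0.0103), RHNO1 (0.0158) and DBNL (0.0163), none of which was called, and PDGFD to UNC119 (0.0264), ABTB2 (0.0274) and MSL3 (0.0328).

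Tested genes next to the members were compared by position. CSF1R, the receptor gene for macrophage colony-stimulating factor, starts 467 bases beyond the end of PDGFRB on the same strand. On the other side of PDGFRB, ARSI was not called (-0.52, adjusted p = 0.0623). CSF1R counts were 22, 8 and 2 in siCCNL2 libraries, against 24, 41 and 32 in siNC libraries, and the gene was called lower (log2 fold change -1.57, SE 0.435, adjusted p = 0.00657). The spread of the siCCNL2 libraries was wide, and the call was lost without siCCNL2 replicate 3 (-1.09, adjusted p = 0.0509) or without siNC replicate 2 (-1.35, adjusted p = 0.0601). SLC7A2, a transporter gene for cationic amino acids 5860 bases from PDGFRL on the same strand, rose (log2 fold change 0.80, SE 0.0575, adjusted p = 8.76e-11), and PCM1 on the other side was not called (-0.08, adjusted p = 0.225). GLRB, a glycine receptor subunit gene beside the uncalled PDGFC, fell (-0.33, adjusted p = 0.0161), with adjusted p up to 0.0728 and no call when either of 2 siCCNL2 libraries (replicates 1 and 3) or 2 siNC libraries (replicates 1 and 3) was left out. The other neighbours of PDGFC and PDGFD were not called. Of the nearest tested neighbours of PDGFA and PDGFB on either side, none was called lower. Beside PDGFA, FAM20C rose (log2 fold change 0.15, adjusted p = 0.00966) and PRKAR1B was not called (-0.11, adjusted p = 0.53), while CBX7 (-0.33, adjusted p = 0.214) and RPL3 (-0.04, adjusted p = 0.32) beside PDGFB were not called. Genes overlapping PDGFB, PDGFC, PDGFD and PDGFRA held at most 10 counts in any library. The one overlapping PDGFRA, AC058822.1, lies on the same strand, so its counts and those of PDGFRA may both be understated.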

How the data were processed

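Total RNA of 6 HEY libraries was measured, grouped by the siRNA named in the sample titles. One deposited table gives raw read counts by gene, as whole numbers. In the other, the authors gave a TPM-like score, scaled by gene length and depth. Named in the submitters' processing notes, without role or order, are GRCh38, HISAT2, fastp 0.23.0 and HTSeq 2.0.1. Annotation release, kit, strand setting and siRNA sequences are not given in the sources used here. Both tables hold the same measurement, since their quotient was a product of a gene factor and a library factor to within 2.08e-09 in 10902 genes. The 62710 rows hold 60835 names, each used once.

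Tests used edgeR 4.0.16 (R 4.3.3) with filterByExpr, TMM factors, glmQLFit and glmQLFTest over 15346 genes, siCCNL2 over siNC, without covariates, with Benjamini-Hochberg adjustment. Genes were called at an adjusted p under 0.05. The script was tested on simulated data. Total counts were 13596286 to 18095529, and low counts, as for PDGFRA and PDGFRL, limit precision. Counting intervals cover counting error only, and were computed at 95%.

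Members and lists were chosen with earlier results of these data known. Named were all members, CCNL2, up to 3 called genes per direction and the most abundant gene of each list, the 3 nearest profiles (log2 of CPM plus 0.5, mean of at least 1 CPM), and genomic neighbours. NRP2, LRP1, SPRY4, SP1, EGR1, FOS, FOSB, ST14, PCSK5, PCSK7 and the marker genes were named after their values were seen, as was the choice of annotated genes in the closing section. Alternatives were DESeq2 1.42.0 size factors and Wald test, upper-quartile and no composition factors, other filters, limma 3.58.1 (voom, and trend with 1 or 0.1 added to the score before log2), a replicate block, and leaving out each library. Promoter windows and coordinates of starts are RefSeq GRCh38.p14. Other coordinates come from the authors' table (GRCh38). Protein sequences were not used here.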

Additional observations from a re-analysis of the deposited data

How the results depend on the processing

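The 16 alternatives left the direction of each tested member in place. Log2 fold changes ran from -1.05 to -0.99 for PDGFA, from -2.02 to -1.69 for PDGFB, from 0.04 to 0.11 for PDGFC, from -0.36 to -0.21 for PDGFD, from -0.84 to -0.54 for PDGFRB and from 0.74 to 1.23 for PDGFRL. PDGFA, PDGFB and PDGFRB were called under all 16, and PDGFC and PDGFD under none. PDGFRL lost its call when a library was left out, at 1.01 (adjusted p = 0.0567) without siCCNL2 replicate 3 and 0.76 (adjusted p = 0.0961) without siNC replicate 1, which left 0 members higher. Leaving out libraries gave 0.76 to 1.23 for PDGFRL and 0 to 1 members called higher. Pathway genes called ran from 11 to 14 higher and from 21 to 24 lower, and calls over all genes from 2032 to 2673 higher and from 2032 to 2783 lower. The 1 related gene called higher, VEGFA, was not called under upper-quartile factors, no composition factor, no count filter, the DESeq2 Wald test, limma-voom and both limma-trend fits, which left 0, and leaving out libraries gave 0 to 1. Non-members near 0 changed sign without a call. CRK, at 0.0031, gave -0.0153 under upper-quartile factors, -0.001999 with no composition factor, -0.000513 with no count filter, -0.00736 and -0.00739 under the limma-trend fits, and -0.0166 to 0.0207 when libraries were left out, where the sign turned without siCCNL2 replicate 2 or siNC replicate 2. Leaving out libraries gave -0.0447 to 0.173 for DYNC2H1 (negative without siNC replicate 3) and -0.158 to 0.0568 for VEGFB (positive without siCCNL2 replicate 1). Causes were not tested.

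Same-numbered libraries of the 2 groups deviated together at 0.0355, 0.0154 and 0.045, against -0.0483 to 0.0141 for libraries of unlike number. The same-numbered values were the highest, but all were small. Whether replicate numbers pair the libraries is therefore not settled by them. With the replicate block PDGFRB had -0.71 and PDGFRL 1.07, with 3 members called lower and 1 higher. PDGFRA, at 2 to 17 counts, was too shallow for a comparison.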

Other observations

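Relatives of the PDGF genes were also measured. Of 15 genes for vascular endothelial growth factors, other class III receptor kinases and their ligands, 8 were tested, 1 was called higher and 3 lower, which is 12.5% and 37.5% beside 17.2% and 16.5% over all tested genes. PGF, placental growth factor, had a mean score of 14.6 ± 1.05 in siCCNL2 and 20.6 ± 1.47 in siNC (log2 fold change -0.49, edgeR adjusted p = 1.23e-04). CSF1, the ligand of the CSF1R receptor, was at 49.2 ± 3.79 in siCCNL2 and 75.7 ± 1.77 in siNC (log2 fold change -0.61, edgeR adjusted p = 1.33e-09). VEGFA, at 7.0 ± 0.464 in siCCNL2 and 6.16 ± 0.330 in siNC, had a log2 fold change of 0.20 (edgeR adjusted p = 0.0484), a call that 12 of 16 alternatives did not make. VEGFB, the most abundant VEGF gene, and the receptor kinase gene KIT were not called, and the VEGF receptor genes FLT1, KDR and FLT4 were too low to test.

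The authors' deposited table annotates 44 further genes to PDGF receptor signalling or to the response to PDGF, 9 of which are also in the pathway lists. Of 37 tested, 6 rose (16.2%, beside 17.2% over all tested genes) and 14 fell (37.8%, beside 16.5%). That was 54.1% called in all, beside 33.6% over all tested genes. These genes were listed after the data had been seen. Among those that fell, ITGB3, the integrin beta chain that cooperates with PDGF receptors, had a mean score of 9.18 ± 0.265 in siCCNL2 and 15.2 ± 1.31 in siNC (log2 fold change -0.72, edgeR adjusted p = 3.01e-07). TXNIP, an inhibitor of thioredoxin, was at 9.16 ± 1.145 in siCCNL2 and 17.8 ± 2.60 in siNC (log2 fold change -0.94, edgeR adjusted p = 1.37e-06). HDAC1, a histone deacetylase gene, was among those that rose, at 201 ± 6.91 in siCCNL2 and 161 ± 5.32 in siNC (log2 fold change 0.33, edgeR adjusted p = 1.26e-06).

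Markers of cells in which PDGF signalling is usually described gave mixed levels. CDH5, a cadherin typical of endothelium, had a mean score of 35.0 ± 4.004 in siCCNL2 and 85.3 ± 2.35 in siNC (log2 fold change -1.28, edgeR adjusted p = 5.48e-14). The other 4 of 5 endothelial markers, PECAM1, VWF, TEK and CLDN5, had mean scores under 1 in siCCNL2, and PECAM1 also fell (log2 fold change -1.41, edgeR adjusted p = 0.00126). The summed score of the 5 was 33.6 to 40.8 in siCCNL2 libraries and 85.9 to 89.7 in siNC libraries, nearly all of it CDH5. Platelet and leukocyte markers summed to 0.821 to 1.42 in siCCNL2 libraries and 0.664 to 1.91 in siNC libraries, with PF4 and PPBP at 0 counts in every library.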
